A study of Mus musculus with 7 samples.

Results

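The miR-15/16 family was measured in mouse kidney as 7 mature miRNAs (mmu-miR-15a, mmu-miR-15b, mmu-miR-16, mmu-miR-195, mmu-miR-497, mmu-miR-322 and mmu-miR-503), out of 696 mouse miRNAs on each array. The members were taken by their exact miRNA name in the scanner output, and all 7 were found. Kidneys were taken at day 28 from C57BL/6 males. Their age is given as 9 to 12 weeks, which the methods state for the mice as purchased, before surgery. Total RNA of the kidneys was measured with the dye Cy3 on 7 Agilent miRNA arrays of 1 colour. Of these arrays, 3 were labelled treated (replicates 1, 3 and 4) and 4 non-treated (replicates 1 to 4). The series describes unilateral ureteral obstruction (UUO), in which the left ureter is tied off and the kidney scars, and a sham operation in which it is only exposed. All mice were of the same strain and sex, and no transgene or drug beyond the anesthetic is named. The record does not say which label stands for obstruction: its numbers carry an S for treated and a C for non-treated, and its title names sham kidneys. Each direction is therefore given as labelled treated minus labelled non-treated, and it opposes the signs in the study's own list of changed miRNAs. In that list, given as UUO over sham, miR-21 is up and miR-192 is down, while here they were at -2.18 and 3.24. By these signs labelled treated stands on the sham side of the list. The list holds no member of this family, but its scaling and cut differ from those used here. The study describes each group as several mice, but no label ties an array to an animal, so the p-values measure the spread between these arrays.

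A miRNA directs the silencing complex to messenger RNAs mainly through its seed, bases 2 to 8 from the 5′ end. miRNAs of the miR-15/16 family are known to repress cell-cycle genes, among them cyclins of the G1 phase and cyclin-dependent kinases, and so to hold cells out of division, and miR-15a and miR-16 are also known for repressing the survival gene Bcl2. The family is spread over 4 loci that each make a pair of members from 1 stretch of RNA. miR-16 was the reference miRNA for the study's serum measurements.

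The mature sequences show what the members share and where they part, and they are printed because the members with the same seed did not have the same differences between the labels. All 7 members matched a mature name in RefSeq (GRCm38.p6), with the array's miR-195 and miR-497 matched to miR-195a and miR-497a. Capitals mark bases 2 to 8, the seed.
miR-15a: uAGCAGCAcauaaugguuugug
miR-16: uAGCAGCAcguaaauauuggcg
miR-15b: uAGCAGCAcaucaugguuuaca
miR-195: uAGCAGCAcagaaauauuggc
miR-497: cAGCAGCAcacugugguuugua
miR-322: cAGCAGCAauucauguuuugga
miR-503: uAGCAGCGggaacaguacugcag

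6 of the 7 members have the same seed, which 10 of 1679 mature names in the table carry (0.596%). The exception was miR-503, whose seed differs from that of the other members by A8G, counted from 1 at the 5′ end with the base of miR-15a first, so it is a relative of the family rather than a holder of its seed. Outside the seed the closest pair was miR-16 and miR-195, which differ at 2 of 21 compared bases, G10A and U11G with the base of miR-16 first. miR-15a and miR-15b differ at 4 of 22 bases, and miR-195 differs from its cluster partner miR-497 at 9 of 21.

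The 4 loci lie on different chromosomes. miR-15a (chr14:61632075-61632096, minus strand) lies beside the first copy of miR-16 (chr14:61631936-61631957, minus strand), and both hairpins are within the bounds of the long noncoding RNA Dleu2. miR-15b (chr3:69009775-69009796, plus strand) lies beside the second copy of miR-16 (chr3:69009918-69009939, plus strand) within the bounds of Smc4, which encodes a condensin subunit that compacts chromosomes for division. miR-16 thus has 2 genes that make an identical mature sequence, and the array cannot tell their products apart. miR-497 (chr11:70234730-70234751) and miR-195 (chr11:70235062-70235082) are both on the plus strand with no other spanning gene in the table. miR-322 (chrX:53054306-53054327) and miR-503 (chrX:53054027-53054049) are both on the minus strand within the noncoding RNA C430049B03Rik.

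Signals were compared on the log2 scale after each array was scaled by the mean log2 signal of the 186 miRNAs that Agilent's software called detected on every array. The arrays differed before scaling. That mean was 7.40, 7.52, 6.65 and 7.40 for non-treated replicates 1 to 4, against 6.05, 6.42 and 5.79 for treated replicates 1, 3 and 4, and 232 to 282 miRNAs were detected on non-treated arrays against 193 to 214 on treated ones. Replicate 3 of the non-treated label was far below its fellows in this mean and in the spike-in controls. No spot was saturated. Of 8 miRNAs known from tubule cells, all detected on every array, 6 were higher on the arrays labelled treated, 1 was lower (miR-204, -0.56) and 1 did not pass, and both of red blood cells were higher, where 23.7% of all tested miRNAs were higher. All 6 of white blood cells and all 5 of mesenchymal cells were lower, where 30.9% of all tested miRNAs were lower, and 0 of 2 of endothelial cells passed. The summed scaled signal of the white blood cell list was 1398 to 1779 on non-treated and 339 to 352 on treated arrays, and that of the mesenchymal list was 2530 to 2867 against 574 to 589. It was 3148 to 3783 against 8166 to 8508 for the tubule list, 1079 to 2329 against 4615 to 5118 for the red blood cell list, and 1769 to 1955 against 1780 to 1899 for the endothelial list. The part of these cell types in the differences of the family was not tested. In RNA of whole kidney, fewer cells of a type and less RNA per cell cannot be told apart.

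Of the 7 members, 5 were lower on the arrays labelled treated (limma, Benjamini-Hochberg adjusted p below 0.01 over 236 tested miRNAs), 0 were higher and 2 did not pass. Among all tested miRNAs 30.9% were lower and 23.7% were higher. miR-195 and miR-497 differed most, miR-15b and miR-322 by smaller amounts near -0.4, and miR-15a and miR-16 by amounts inside their own spread. The size for miR-503 depends on the floor. It entered the test only through the non-treated arrays, where it is higher, as 2 of 3 treated arrays detected it. When only the 186 miRNAs detected on every array were tested, 4 of 6 members were lower, beside 56 of all 186. The median difference was -0.41 over the 7 members and -0.06 over all tested miRNAs. The labels did not overlap for 5 of 7 members (71.4%), against 66.1% of all tested miRNAs, a share near the background. No member was higher at an unadjusted p below 0.05 in limma either (count 0), nor in the test named in the study's methods (0 higher), but with the 75th percentile of all miRNAs as the scale 2 were at an unadjusted p below 0.05, miR-15a (0.35) and miR-16 (0.23).

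**Figure D1:**
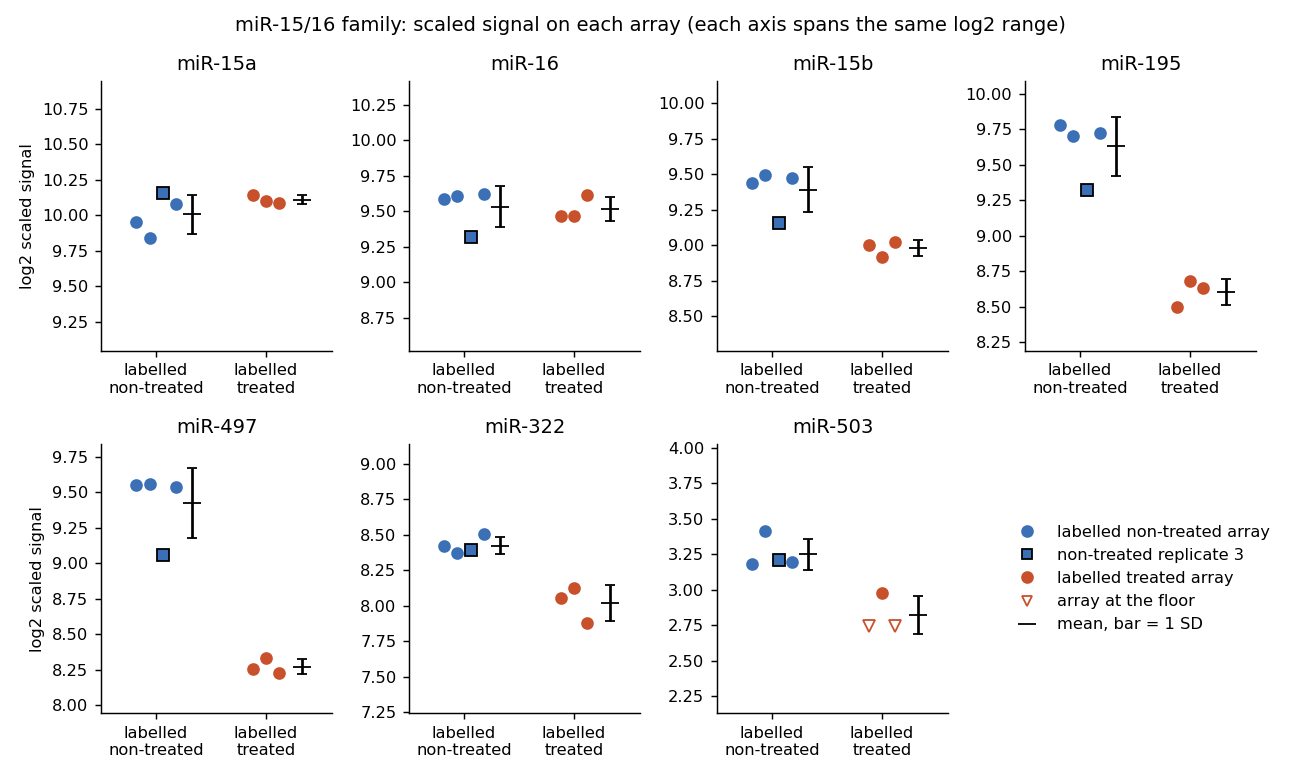
Log2 scaled signal of each member on each array, with 1 panel per member, blue for 4 arrays labelled non-treated, orange for 3 labelled treated, the square for non-treated replicate 3, open triangles for arrays at the floor, and the mean with a bar of 1 SD. miR-195 and miR-497 stand apart by about 1 unit, miR-15a and miR-16 overlap, and non-treated replicate 3 lies low in 4 panels.

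The pair on chromosome 11 had the largest differences. miR-195, known for holding back the division of heart muscle cells after birth, read 9.78, 9.70, 9.32 and 9.72 on the non-treated arrays and 8.50, 8.68 and 8.63 on the treated ones. Every treated array lay below every non-treated array, and the lowest non-treated value was replicate 3. The mean was 9.63 ± 0.21 (SD, n = 4) on non-treated arrays and 8.60 ± 0.09 (SD, n = 3) on treated ones. The log2 difference was -1.03 (SE 0.12, limma adjusted p = 3.48e-04), a signal 2.04-fold higher on non-treated arrays.

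miR-497 read 9.55, 9.56, 9.06 and 9.53 on the non-treated arrays and 8.26, 8.33 and 8.23 on the treated ones. As with its partner, the labels did not overlap and non-treated replicate 3 was the closest to the treated arrays. The mean was 9.42 ± 0.25 (SD, n = 4) on non-treated arrays and 8.27 ± 0.05 (SD, n = 3) on treated ones. The difference was -1.15 (SE 0.14, limma adjusted p = 3.45e-04), a signal 2.22-fold higher on non-treated arrays. Over all 236 tested miRNAs miR-497 ranked 35 and miR-195 ranked 38 from the lowest difference, so they were not among the most extreme miRNAs. Without non-treated replicate 3 the differences were -1.15 for miR-195 and -1.30 for miR-497, and leaving out any single array kept both past the threshold (highest adjusted p 0.00248 over the 7 fits).

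On the same array, where the scaling cancels, the log2 ratio of miR-195 to miR-497 moved by 0.13 (SE 0.054) between the labels. The ratio was 0.22, 0.15, 0.27 and 0.19 on the non-treated arrays and 0.24, 0.35 and 0.41 on the treated ones, and the labels overlapped (exact permutation p = 0.114, 2-sided). The profile of miR-497 over the 7 arrays was within a root mean square of 0.084 log2 of that of miR-195 after each was centred, closer than any of the 180 miRNAs outside the family that were compared. Outside the family the nearest profiles to miR-195 were miR-23a (0.11) and miR-143 (0.15), a miRNA of smooth muscle.

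**Figure D2:**
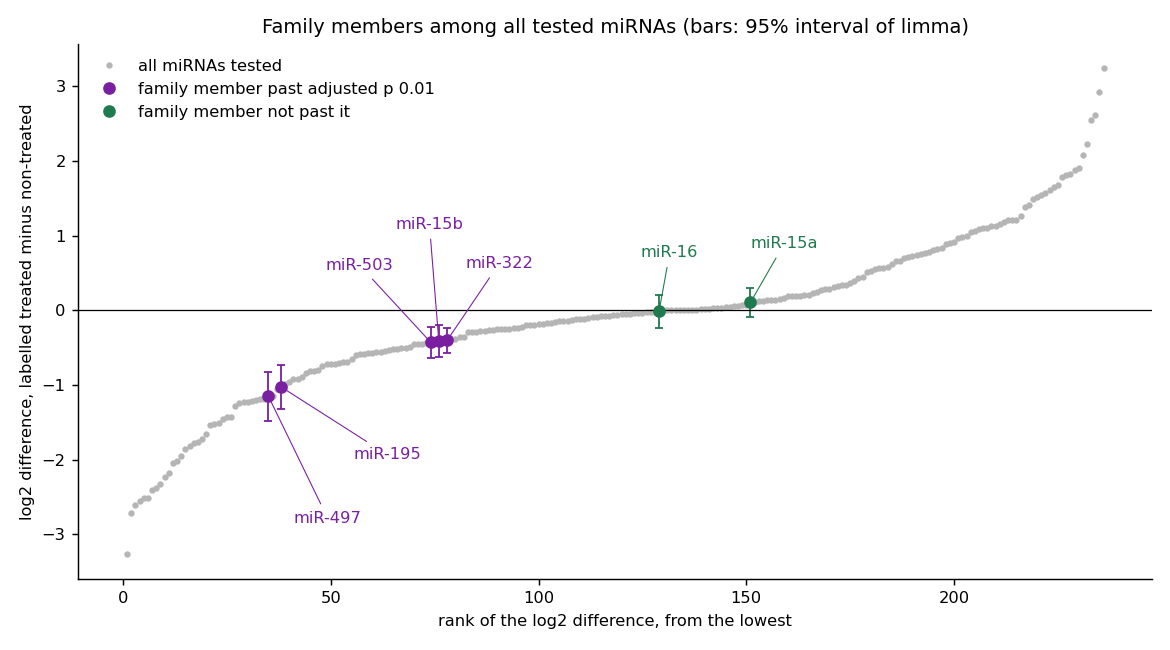
Log2 difference, labelled treated minus labelled non-treated, of all 236 tested miRNAs (grey) ranked from the lowest, with the 7 members marked and bars for the 95% interval from limma. The members called lower lie between ranks 35 and 78, and miR-16 and miR-15a lie at ranks 129 and 151 with intervals that include 0.

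In the pairs on chromosomes 14 and 3, miR-15a and miR-16 did not pass the threshold and miR-15b did. miR-15a read 9.95, 9.84, 10.15 and 10.08 on non-treated arrays and 10.15, 10.10 and 10.09 on treated ones, and all 3 treated values lay inside the non-treated range. Its difference was 0.10 (SE 0.080, limma adjusted p = 0.296) with a 95% interval of -0.09 to 0.30. miR-16 read 9.59, 9.61, 9.31 and 9.62 against 9.47, 9.46 and 9.61, again with the treated arrays inside the non-treated range. Its difference was -0.02 (SE 0.089, limma adjusted p = 0.904) with an interval of -0.23 to 0.20, under this scaling.

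miR-15b, which shares its locus with the second copy of miR-16, read 9.44, 9.50, 9.16 and 9.47 on non-treated arrays and 9.00, 8.92 and 9.02 on treated ones. The labels did not overlap, but the gap from the lowest non-treated array, replicate 3, to the highest treated one was small. The difference was -0.41 (SE 0.091, limma adjusted p = 0.00686, 1.33-fold higher on non-treated arrays). Leaving out any one of the other 6 arrays ended the call (adjusted p 0.0190 to 0.0293), and leaving out non-treated replicate 3 gave -0.51 (adjusted p = 1.31e-04).

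The ratio of miR-15b to miR-16 on the same array had the smallest SE of the 8 ratios. It was -0.15, -0.11, -0.16 and -0.15 on non-treated arrays and -0.47, -0.55 and -0.59 on treated ones, with non-treated replicate 3 among the rest of its label. The ratio was lower by 0.40 log2 on average on the treated arrays (difference -0.40, SE 0.038), and the labels did not overlap (exact permutation p = 0.0571, 2-sided; 0.0914 adjusted over 8 pairs). The 2-sided p doubles the smaller tail over the 35 ways to choose 3 of 7 arrays. The smallest p it can give is 0.0571, so no ratio can pass 0.05 by this rule. The ratio of miR-15a to miR-16 differed by 0.12 (SE 0.14, exact permutation p = 0.457, adjusted 0.522), and its highest value, 0.84, was on non-treated replicate 3.

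The nearest profiles outside the family to miR-16 were those of miR-126-5p (root mean square 0.071) and miR-126-3p (0.081), miRNAs of endothelial cells. As miR-16 was nearly flat between the labels, a near profile here shows no more than another flat one. A shared cell type was not tested. Those nearest to miR-15b were miR-140 (0.095) and miR-152 (0.11).

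The pair on the X chromosome was dimmer. miR-322, the mouse counterpart of human miR-424, read 8.42, 8.37, 8.39 and 8.51 on non-treated arrays and 8.05, 8.13 and 7.88 on treated ones. The labels did not overlap, and non-treated replicate 3 was in the middle of its label. The mean was 8.42 ± 0.06 (SD, n = 4) on non-treated arrays and 8.02 ± 0.13 (SD, n = 3) on treated ones. miR-322 thus differed by -0.40 (SE 0.069, limma adjusted p = 0.00209, 1.32-fold higher on non-treated arrays). It kept its side of the threshold when any single array was left out (adjusted p 0.00254 to 0.00801). Its nearest profiles outside the family were miR-106b (0.071) and miR-28 (0.086).

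miR-503 lay close to the background. It read 3.18, 3.41, 3.21 and 3.20 on non-treated arrays and 2.75, 2.98 and 2.75 on treated ones, where the 2 values of 2.75 are the floor, the highest over arrays of the lowest detected signal. It was called detected on 4 of 4 non-treated and 2 of 3 treated arrays. The difference was -0.43 (SE 0.086, limma adjusted p = 0.00463) with the floor, -0.59 (SE 0.14, limma adjusted p = 0.00529) without one and -0.78 (adjusted p = 0.0208) with the total gene signal of the scanner software, so its size depends on the floor and the signal used. It lost the call when non-treated replicate 3, non-treated replicate 4, treated replicate 1 or treated replicate 4 was left out (adjusted p 0.0108, 0.0112, 0.0211 and 0.0310).

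Each member has 2 probes, each printed in up to 10 spots. For miR-15a, miR-15b, miR-195, miR-497 and miR-322 both probes gave the same sign. The brighter and the dimmer probe gave -1.04 and -0.99 for miR-195, -1.13 and -1.27 for miR-497, -0.38 and -0.48 for miR-15b, and -0.39 and -0.42 for miR-322. They gave 0.07 and 0.15 for miR-15a, and -0.03 and 0.02 for miR-16, with opposite signs. All spots of these 6 members were well above background on all 7 arrays. For miR-503 the brighter probe, with all its spots well above background on 4 arrays, was at the floor on all 3 treated arrays, so its -0.28 is set by the floor, and the dimmer one was at the floor on all 7. Probe sequences were not used here, and cross-hybridization between members as alike as miR-16 and miR-195 was not tested.

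**Figure D3:**
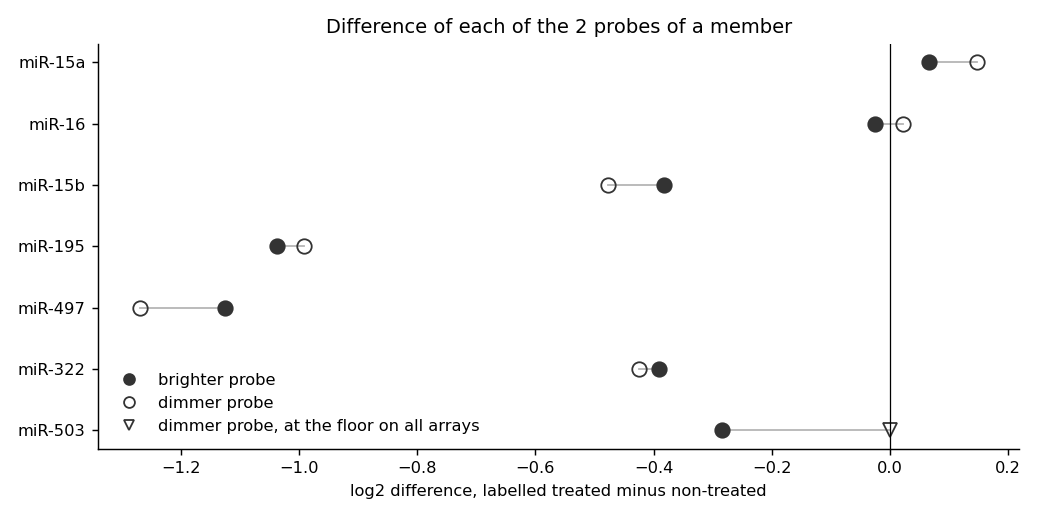
Log2 difference, labelled treated minus labelled non-treated, of the brighter probe (filled) and the dimmer probe (open) of each member, with a triangle where the dimmer probe was at the floor on all 7 arrays. The largest distance between both probes above the floor was that of miR-497, -1.13 against -1.27.

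The arrays lay in 2 rows of 1 slide, and both rows held both labels, with 2 non-treated arrays and 1 treated array in row 1 and 2 of each in row 2. Within rows 1 and 2 the difference was -1.24 and -0.86 for miR-195, -1.30 and -1.02 for miR-497, -0.47 and -0.35 for miR-15b, and -0.34 and -0.45 for miR-322, so these 4 had the same sign in both. It was 0.25 and -0.02 for miR-15a and -0.13 and 0.07 for miR-16, with the sign not kept. With the row as a block miR-195, miR-497 and miR-322 stayed past the threshold, while miR-15b (limma adjusted p = 0.0119) and miR-503 (0.0116) did not.

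Ratios between loci on the same array set the members apart. The log2 ratio to miR-15a differed between the labels by -1.13 (SE 0.17) for miR-195, by -0.52 (SE 0.14) for miR-15b and by -0.51 (SE 0.093) for miR-322, each without overlap (exact permutation p = 0.0571, adjusted 0.0914). The ratio of miR-322 to miR-195 was 0.62 higher on treated arrays (SE 0.13, the same p), and it did not overlap between the labels. The difference between the labels was thus larger in size for miR-195 than for miR-322. The ratio of miR-15b to miR-322 differed by -0.0073 (SE 0.13, exact permutation p = 0.971), and the labels overlapped. The ratios of miR-322 to miR-195 and of miR-15b to miR-322 were added after the values were seen.

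**Figure D4:**
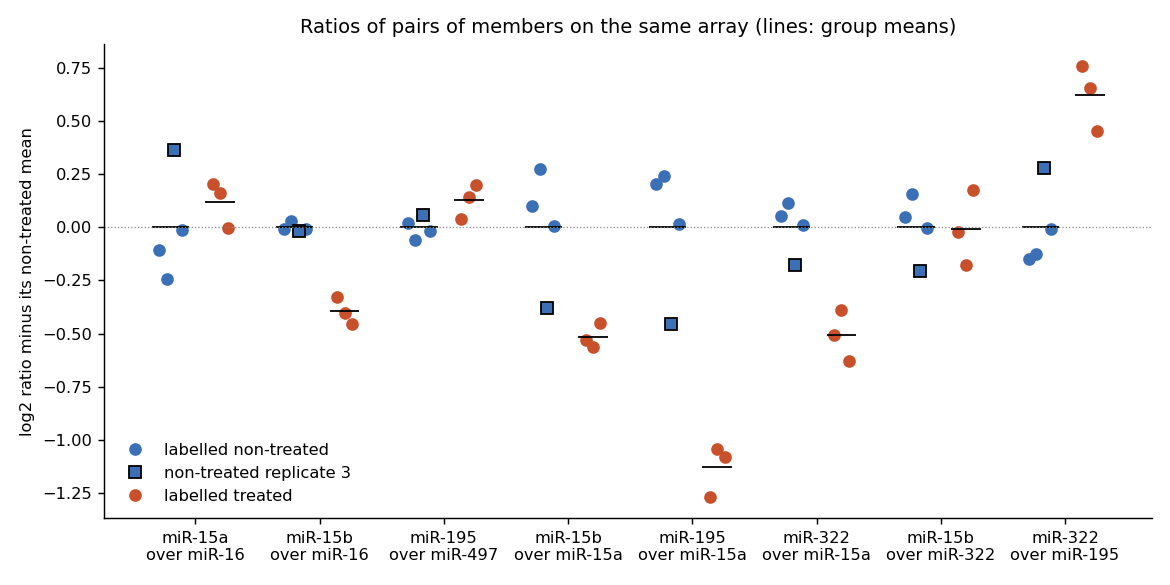
Log2 ratio of 8 pairs of members on each array, less the mean of the non-treated arrays, with blue for non-treated, orange for treated, the square for non-treated replicate 3 and lines for group means. The 3 treated arrays lie below all non-treated ones in 4 pairs and above them for miR-322 over miR-195, while the labels overlap in the other 3.

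The level of the whole family depends on how the arrays are scaled, while the distances between the 6 members above the floor are the same under any scaling that shifts each array by a constant. Before any scaling the summed signal of miR-15a was 1067 to 1706 on non-treated arrays and 560 to 876 on treated ones, and in the same way all 7 members were dimmer on every treated array than on every non-treated one. Without scaling all 7 were called lower, and with spike-in controls as the scale all 7 again, but then the median of all tested miRNAs was also moved, to -1.20 and -1.01. miR-15a and miR-16, which did not pass here, were -1.05 and -1.17 without scaling and -0.85 and -0.97 with the spike-in scale. With the 75th percentile of all miRNAs they were 0.35 and 0.23, and only miR-195 (-0.78) and miR-497 (-0.91) stayed past the threshold. The share of higher among called miRNAs was 43.4% under the scaling used here, 4.14% without scaling, 9.78% with spike-in controls, 22.9% with the mean of all miRNAs and 61.3% with the 75th percentile of all miRNAs.

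**Figure D5:**
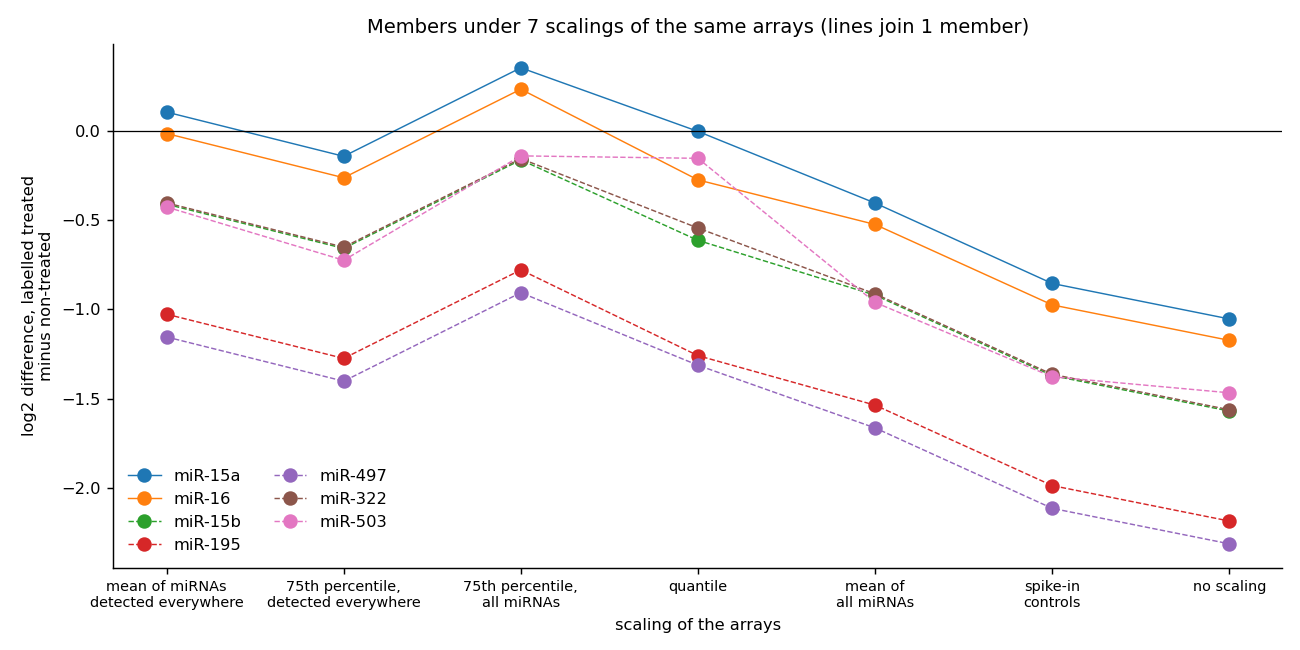
Log2 difference, labelled treated minus labelled non-treated, of each member under 7 scalings of the same arrays, with lines joining 1 member. miR-195 and miR-497 are the lowest under each of the 7, and miR-15a and miR-16 range from 0.35 and 0.23 down to -1.05 and -1.17.

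The other strand of each hairpin and the neighbours of the X-linked pair were mostly below detection. Of 9 names of passenger strands, 5 were on the array and 4 of these were detected on no array. miR-322*, the passenger strand of miR-322, was called detected on 4 of 4 non-treated and 0 of 3 treated arrays, but its signal was at the floor on all of them, so no fold is given. Of 8 names of miRNAs beside miR-322 and miR-503, 5 were on the array by exact name and 2 were tested, with 0 past the threshold. miR-542-3p was at -0.05 (adjusted p = 0.371) and miR-542-5p at -0.19 (adjusted p = 0.267), each detected on 4 non-treated arrays and 1 treated array. miR-542-3p was at the floor on 2 treated arrays and miR-542-5p on 1, so the floor limits the size of these differences. With no scaling, spike-in controls or the mean of all miRNAs as the scale, both were called lower. The array also holds miR-450a under a name without an arm, which the list did not match and which was looked up after its values were seen, at 0.03 (adjusted p = 0.624).

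miR-103 and miR-107, made from introns of genes for pantothenate kinases, are relatives by sequence in which the shared 7 bases sit 1 base nearer the 5′ end, and they are printed to show how close they are to each other.
miR-103: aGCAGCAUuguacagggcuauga
miR-107: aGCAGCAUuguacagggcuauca
They differ at 1 of 23 bases (G22C, with the base of miR-103 first). miR-107 was higher on treated arrays by 1.55 (SE 0.092, limma adjusted p = 1.45e-05), and miR-103 was at 0.01 (SE 0.089, adjusted p = 0.915). No member of the miR-15/16 family was higher, and the direction of miR-103 turned in 9 of 27 alternatives.

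Of 28 other miRNAs known to act on the cell cycle, 26 were tested, of which 9 were lower (34.6%, near the 30.9% of all tested miRNAs), 2 were higher (7.69%, against 23.7%) and 15 did not pass. Their median difference was -0.04. The largest negative differences were those of let-7i (-1.23), a repressor of cyclins and Ras, miR-34c (-0.72), of the p53-induced miR-34 family, and miR-24 (-0.60). Higher on treated arrays were miR-221 (0.81), which represses the cell-cycle inhibitor p27, and let-7g (0.66). Thus 2 members of the let-7 family had opposite signs here. These counts moved with the scaling. With no scaling, with spike-in controls or with the mean of all miRNAs as the scale, 0 of the list passed as higher and 23, 24 and 15 as lower, while the 75th percentile of all miRNAs gave 6 higher and 3 lower.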

How the data were processed

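The authors deposited the output of the scanner software (Agilent Feature Extraction, version 10.7.3.1, per the labels), whose processed signal is a background-subtracted intensity on a linear scale, not normalized between arrays. Each array held 13920 spots for 1937 probes of 696 miRNAs. A value table deposited by the authors holds the processed intensity of the first spot of each probe for 6 arrays and, for treated replicate 4, its error estimate, with no log or centring. Its column medians were 0.445, 0.532, 0.470 and 0.346 for non-treated replicates 1 to 4, and 0.322, 0.276 and 1.00 for treated replicates 1, 3 and 4. It was used only as an alternative.

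Control spots and outlier flags were left out. Spots were averaged for each probe, the probes of a miRNA were summed, values below 1 were raised to 1, log2 was taken, and each array was scaled by the mean log2 of the miRNAs detected on all arrays and floored at 2.75. The study's methods name the mean of each array; limiting it to detected miRNAs was a choice made here, and the mean of all miRNAs was an alternative. limma 3.58.1 in R 4.3.3 tested the labels over the 236 miRNAs that all arrays of 1 or both labels detected, at a Benjamini-Hochberg adjusted p below 0.01. Exact permutation tests were 2-sided over 35 splits, by doubling the smaller tail. The steps were tested on simulated data. Precision is limited by how few arrays there are.

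The members and the lists (passenger strands, X-linked neighbours, seed relatives, other cell-cycle miRNAs and markers of tubule, red and white blood cells, mesenchyme and endothelium) were chosen with earlier results of these data known. Named are the 7 members, every tested miRNA of the first 3 lists, and the 2 nearest profiles outside the family for 4 members. Among other cell-cycle miRNAs past the threshold, up to 3 higher and 3 lower of greatest size are named. miR-21 and miR-192 are named as examples of the study's list. Other settings were tried for scaling, signal, background, floor, filter, test and threshold, with single arrays left out, and with replicate numbers blocked. The slide row as a block, the table without treated replicate 4 and 2 ratios were added after seeing the data.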

Additional observations from a re-analysis of the deposited data

Results flagged for a closer look

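Several values on the 4 arrays labelled non-treated had 1 array far from the other 3, by Dixon's test at the 95% level. 17 such sets were tested and 7 passed, where chance gives about 1 in 20, and the sets are related measures of the same arrays. Non-treated replicate 3 was the low array for miR-16 (9.31, others 9.59 to 9.62), miR-15b (9.16, others 9.44 to 9.50), miR-195 (9.32, others 9.70 to 9.78) and miR-497 (9.06, others 9.53 to 9.56). It was also the low array for the mean log2 signal of miRNAs detected everywhere (6.65, others 7.40 to 7.52) and for the mean log2 spike-in signal (10.36, others 10.76 to 10.83). miR-15a and miR-322 were not past the test. miR-503 was high on non-treated replicate 2 (3.41, others 3.18 to 3.21). Without non-treated replicate 3 the differences of miR-195, miR-497, miR-15b and miR-322 were -1.15, -1.30, -0.51 and -0.44, and 4 members were lower.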

How the results depend on the processing

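Over 27 alternatives, miR-195 (-2.18 to -0.78) and miR-497 (-2.31 to -0.91) kept their direction in all and their side of the threshold in 26, the exception being the replicate block. miR-322 kept its side in 21 and miR-15b in 11, both with their direction in all 27, and miR-503 in 12 of 26. The scale of the study's own list was not among the 27. With its sign turned, that list lies above the values used here by a near-constant step for most of its miRNAs. The step would turn miR-15b, miR-322 and miR-503 (with the floor), leaving only miR-195 and miR-497 lower. The number of members lower, 5 as reported, was 2 with no filter on dim miRNAs, the deposited table or scaling to the 75th percentile of all miRNAs, 3 with the total gene signal, the brightest probe, normexp on median signals or the methods' t-test (which put 5 lower at p below 0.01 unadjusted and 0 after Bonferroni adjustment), 7 with no scaling or spike-in controls, 3 to 4 with 1 array left out, and, of the added alternatives, 2 with the deposited table without treated replicate 4 and 3 with the slide row as a block. No pairing by replicate number was seen, though so few arrays cannot exclude it. Deviations of same-numbered arrays correlated at -0.02, -0.02 and 0.19 over 186 miRNAs, and 2 of 6 arrays correlated best with their own number. With the replicate block 0 members were lower (46 higher and 48 lower over all tested), with miR-195 at an adjusted p of 0.0132 and miR-497 at -1.11 (adjusted p = 0.0109). Under the block non-treated replicate 2, which has no partner, adds nothing to the estimate, and fewer residual degrees of freedom are left.

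The sign turned for miR-15a with the 75th percentile of detected miRNAs (-0.14), the mean of all miRNAs (-0.41), no scaling (-1.05), quantile normalization (-0.0045), spike-in controls (-0.85), the deposited table (-0.030) and normexp (-0.41). It turned for miR-16 with scaling to the 75th percentile of all miRNAs (0.23), with the total gene signal (0.029) and the block (0.0088). It also turned for miR-16 in 5 of the 7 fits that each left out 1 array (0.0021 to 0.013, range over all 7 fits -0.11 to 0.013). It turned for miR-503 with the deposited table (0.0013) and normexp (0.0033). For miR-103 it turned with the 75th percentile of detected miRNAs (-0.23), the mean of all miRNAs (-0.49), no scaling (-1.14) and quantile normalization (-0.20). It turned for miR-103 too with spike-in controls (-0.94), the brightest probe (-0.042) and normexp (-0.37). The same held in 2 of the 7 fits that each left out 1 array (range over all 7 fits -0.063 to 0.092). miR-107 was 0.39 with no scaling and 0.59 with spike-in controls, no longer past the threshold. With the mean of all miRNAs as the scale miR-16 was -0.52 and miR-503 -0.96. Of the other cell-cycle miRNAs, 9 lower became 15 with the 75th percentile of detected miRNAs, 4 with the block and 1 with the deposited table. The ratio of miR-322 to miR-15a was -0.37 with the deposited table, -0.15 with normexp and -0.29 with the table without treated replicate 4. The ratio of miR-15b to miR-16 was -0.29 with normexp, that of miR-15b to miR-322 was -0.20 with normexp and -0.30 with the table without treated replicate 4, and that of miR-322 to miR-195 was 0.83 with that table. Other than where the construction shows it, the cause was not tested.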
